A study of Mus musculus with 8 samples.

Results

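Of the 54307 genes in the table of gene counts from *Lrig1* KO and WT mice, 57 autosomal genes were read in some mice and absent from others. Each of these on/off genes had at least 50 estimated counts or at most 3 in every one of the 8 mice, with at least 1 mouse of each kind. A mouse is called on for a gene at 50 counts or more and off at 3 or fewer. The genes were chosen by these counts in each mouse, so their levels, patterns and differences between mice are a description. Fits across all genes used the same counts, and the values they gave for on/off genes are shown beside those for all genes and support nothing. The rule took 0.377% of the 15131 autosomal genes that reached 50 counts in at least 1 mouse. It was met by 61 genes in all, and the 4 of these on chromosomes X and Y were left out.

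Tissue around the lateral ventricle, the ventricular-subventricular zone (V-SVZ), was taken from 1 hemisphere of each mouse at 8 weeks of age, and polyA RNA was sequenced in bulk. The 4 WT mice (WT 1 to WT 4) were 3 females and 1 male, WT 2. The 4 KO mice (KO 1 to KO 4) were 2 females and 2 males, KO 1 and KO 3. All 8 mice, WT included, were labelled with a 129 background, named 129-Elite in the study's methods. The KO was constitutive: mice homozygous for a CreERT2 knock-in at *Lrig1*, born to heterozygous parents, so *Lrig1* was lost in every cell and not in the V-SVZ alone. *Lrig1* encodes a transmembrane protein, described in the study as restraining ErbB receptors and facilitating TGFβ and BMP signalling. Its counts were 824 to 2532 in the WT mice and 72 to 245 in the KO mice. The deposited counts summed to between 47887437 and 74482334 per mouse. The astrocyte and stem cell gene *Slc1a3* (32498.8 to 48788.9 counts), the neuroblast gene *Dcx* (1372.2 to 2033.1) and the ependymal gene *Foxj1* (627 to 1118) were present in every mouse. The neuronal gene *Snap25* was highest in WT 2 and KO 3, at 171966.7 and 158960.9 counts against 54436.8 to 83698.6 in the others. In bulk tissue, fewer cells of a type and less RNA per cell cannot be told apart.

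A processed pseudogene is a copy of a spliced mRNA that was reverse transcribed and inserted back into the genome, so it lacks introns and often matches its parent base for base. An unprocessed pseudogene arises by duplication of a stretch of DNA. Salmon, which made these counts, assigns each read to the transcripts it could come from and divides reads that match several of them by estimated abundance. KRAB zinc fingers, DNA-binding repressors that silence transposable elements, lie in clusters of near-identical genes that differ in copy number between mouse strains.

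The on/off genes and the genes they copy could hardly be separated by sequence. The stretches here, read from Gencode M21 transcripts of the sense strand and 90 bases long, show 5 pairs whose reads are given in full, around their differences. Capitals mark the bases that differ within a stretch. The aligned transcripts of *Gm4737* and *Ahcy* differed at 6 of 2083 bases, and those of *Gm10184* and *Kpna2* at 2 of 1968. *Gm8210* and *Rpl29* differed at 3 of 483 bases, *Gm6768* and *Ncoa4* at 2 of 1878, and *Gm4735* and *Eno1* at 5 of 1302.
Gm4737: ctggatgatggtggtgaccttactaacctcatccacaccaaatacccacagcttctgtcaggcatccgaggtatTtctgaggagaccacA
Ahcy: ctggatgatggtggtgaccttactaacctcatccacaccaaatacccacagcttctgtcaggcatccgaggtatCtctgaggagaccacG
Gm10184: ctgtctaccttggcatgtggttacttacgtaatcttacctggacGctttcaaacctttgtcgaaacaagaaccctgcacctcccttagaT
Kpna2: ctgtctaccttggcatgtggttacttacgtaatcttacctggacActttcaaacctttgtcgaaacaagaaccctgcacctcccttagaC
Gm8210: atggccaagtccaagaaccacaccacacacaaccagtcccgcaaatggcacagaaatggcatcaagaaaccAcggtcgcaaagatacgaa
Rpl29: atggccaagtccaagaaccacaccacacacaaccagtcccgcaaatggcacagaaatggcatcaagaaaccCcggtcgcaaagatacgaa
Gm6768: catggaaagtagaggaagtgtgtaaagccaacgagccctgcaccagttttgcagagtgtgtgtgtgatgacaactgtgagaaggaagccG
Ncoa4: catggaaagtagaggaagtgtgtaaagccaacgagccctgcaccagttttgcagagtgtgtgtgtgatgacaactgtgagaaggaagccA
Gm4735: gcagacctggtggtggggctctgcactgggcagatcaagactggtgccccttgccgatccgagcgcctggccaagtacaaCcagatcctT
Eno1: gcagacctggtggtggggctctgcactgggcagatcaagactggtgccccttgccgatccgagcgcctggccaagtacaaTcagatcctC

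Other pairs had no difference at all. *Gm28661*, one of the on/off genes, and the mitochondrial gene *mt-Co2* were identical over 681 aligned bases. The stretch at their start, shown because no read within it can be assigned to 1 of the 2, reads the same in both.
Gm28661: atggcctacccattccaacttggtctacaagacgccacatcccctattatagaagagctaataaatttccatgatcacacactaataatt
mt-Co2: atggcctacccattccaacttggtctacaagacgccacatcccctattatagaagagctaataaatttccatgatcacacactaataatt
*Gm2436* and *Gm2446* were identical over 771 bases, *Hist2h2aa2* and *Hist2h2aa1* over 528, *Gm10163* and *Gm13370* over 481, and *Gm6361* was identical over its 435 bases to both *Gm6565* and *Ube2v2*.

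By class, 31 of the on/off genes (54.4%) were processed pseudogenes and 8 (14.0%) were unprocessed pseudogenes. Among the 15131 autosomal genes with at least 50 counts in a mouse, these classes made up 1.26% and 0.245%. The remaining genes were 16 protein-coding genes (28.1%, against 90.5%) and 2 lincRNAs (3.51%, against 2.5%). Seen the other way, 16.2% of the 191 processed pseudogenes and 21.6% of the 37 unprocessed pseudogenes that reached 50 counts were on/off genes, against 0.117% of the 13693 protein-coding genes. Chromosomes 2 and 6 held 9 on/off genes each, chromosome 1 held 7 and chromosome 4 held 5, and none lay on chromosomes 11, 13 or 14. Their transcripts were short, with a median of 781 bases against 2939 for the 15131 genes.

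A near-identical copy was found for 54 of the 57 on/off genes (94.7%), against 9.19% of the 15131 genes. A copy was another gene in the table whose transcript matched at least 50% of the gene's transcript at 90% identity or more, on either strand. Among all genes that reached 50 counts, 92.7% of the processed pseudogenes and 7.16% of the protein-coding genes had such a copy. The closest copy was identical over the aligned part for 29 on/off genes, at least 99% identical for 50, and protein-coding for 46. For 8 of the 54 it overlapped the gene in the annotation. The transcripts were also cut into words of 31 bases, and 27 on/off genes had no word that was absent from all other genes. Under 10% of the words were unique in 46, those 27 included, and the median over the 57 genes was 1.11%. Only *Bfsp2*, *Skor2* and *AC158975.1* had over 50%, and these were the 3 genes without a copy. Reads shared between copies were divided by Salmon, so the counts of the other 54 are uncertain at the level of the single gene.

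**Figure D1:**
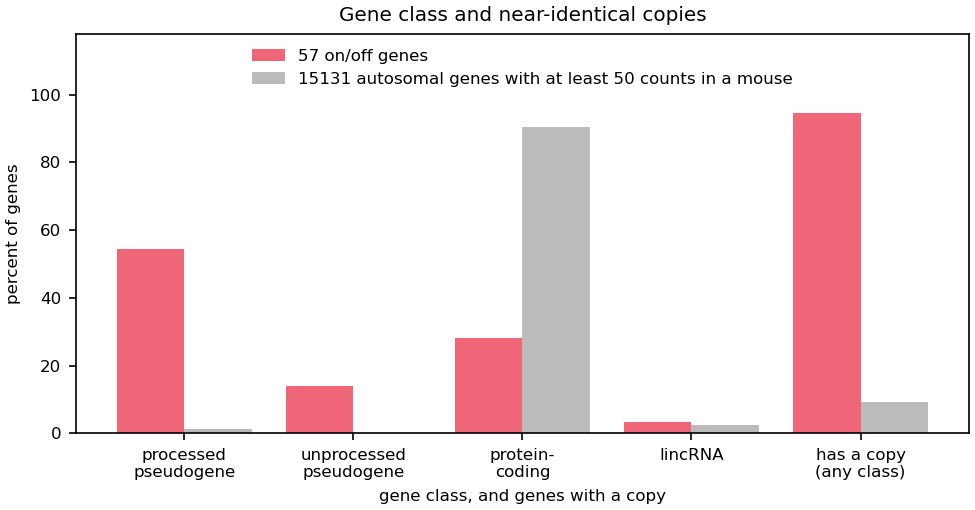
Percent of genes (y axis, from 0) in each gene class and with a near-identical copy, for the 57 on/off genes (red) and the 15131 autosomal genes with at least 50 counts in a mouse (grey). Processed pseudogenes made up 54.4% of the on/off genes and 1.26% of the larger set, and a copy was found for 94.7% and 9.19%.

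The counts of the on/off genes left little between the 2 states. Every off mouse was at 0 counts for 52 of the 57 genes, and the highest count in an off mouse was 2.8, for *Gm4735* in WT 1. In the on mice 10 genes stayed under 100 counts, and the median of the highest count was 312.1. Salmon gives fractions of a read where reads are divided. All on mice had whole counts for 2 of the 57 genes (3.51%), *Bfsp2* and *Skor2*, against 9.18% of the 15131 genes. The genes nearest to the limits inside the rule were *Skor2* at 50 counts in its on mouse, *Gm9830* at 50.4 and *Gm15429* at 50.8, and, on the low side, *Gm4735* at 2.8, *Gm14421* at 2.2 and *Bfsp2* at 2.0. Just outside lay *Gm43079*, which missed the upper limit in WT 4 with 49.997 counts, *AL732309.1* with 48.9 in WT 3, *Rps2-ps6* with 3.12 in KO 4 and *Zfp971* with 3.16 in WT 2. In all, 32 genes missed the rule by exactly 1 mouse.

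**Figure D2:**
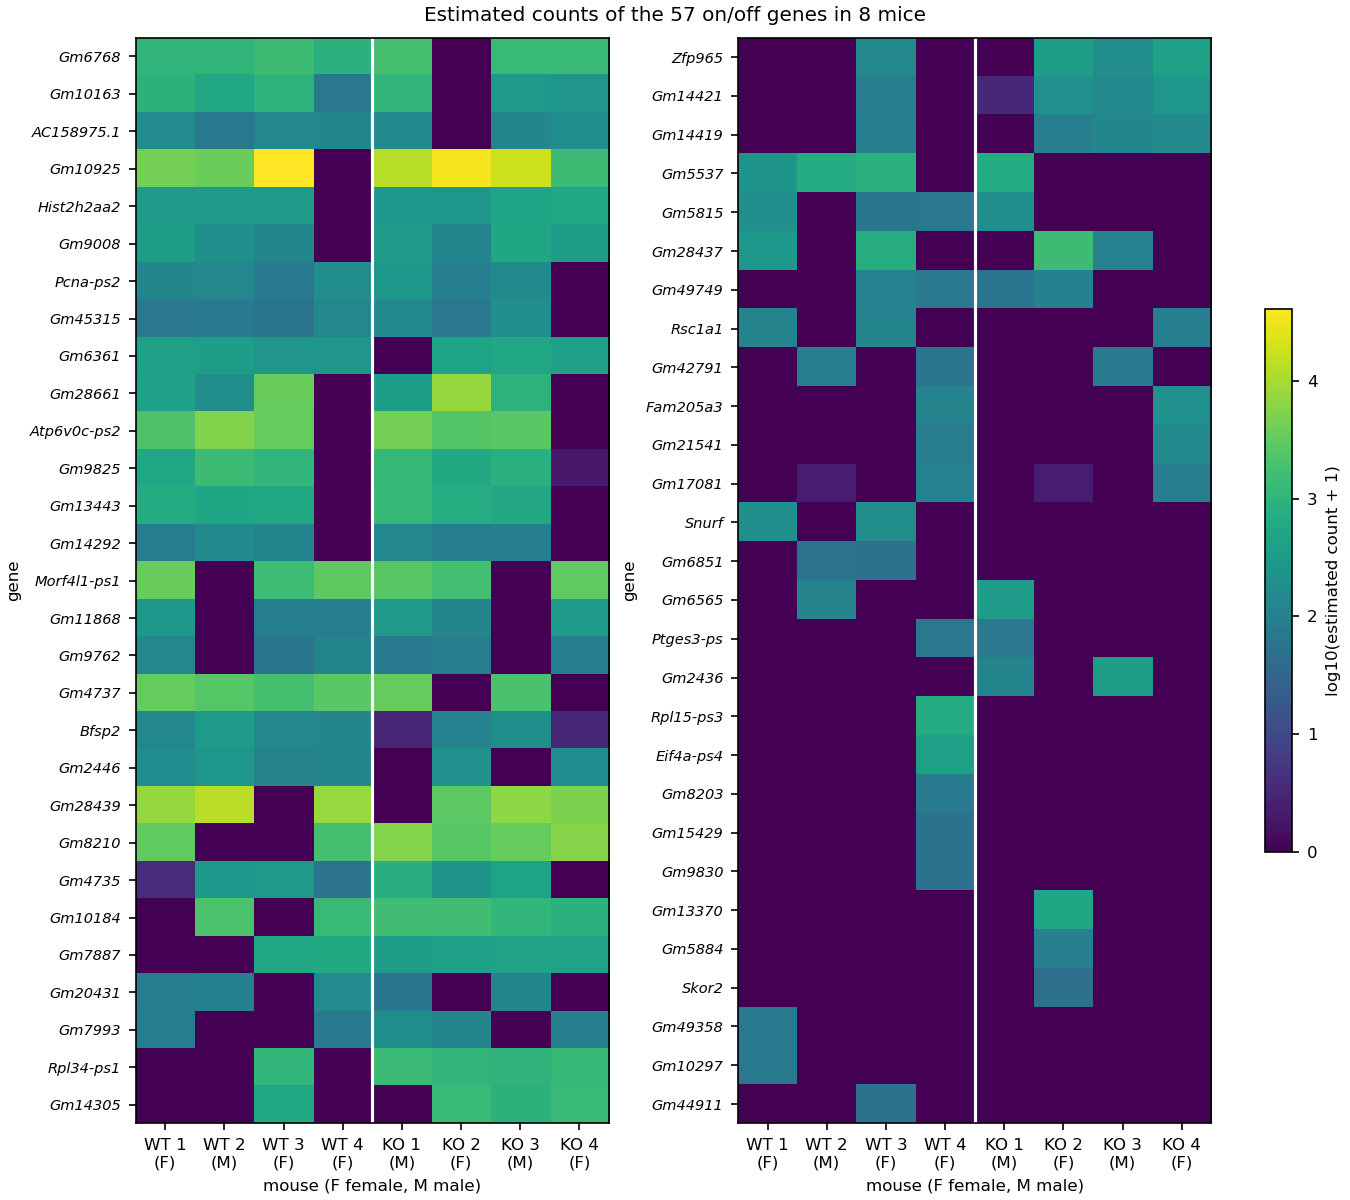
Estimated counts of the 57 on/off genes (rows) in the 8 mice (columns, WT left and KO right of the white line, F female and M male), as log10(count + 1) on the colour scale. Dark cells are off. No gene was on in exactly the KO mice, the WT mice or 1 sex, and nothing is read from this.

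The 57 genes showed 34 different patterns over the mice, of 254 possible. Of the on/off genes, 0 were on in exactly the WT or the KO mice, and 0 in exactly the females or the males. The shares of all tested genes that separate these groups were not computed, so nothing is read from these counts. *Gm43079*, just outside the rule, had 50 to 67.3 counts in the WT mice and 0 in the KO mice. On mice were more often WT for 24 genes, more often KO for 16 and equal in number for 17. A single mouse was off for 9 genes and a single mouse was on for 11. A pair of mice was off for 16 genes and on for 8, and the remaining 13 genes were on in 3 to 5 mice.

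The splits shared by the most genes set WT 4 apart, alone or together with KO 4. WT 4 differed from all other mice in 8 genes on 4 chromosomes. It lacked the mitochondrial copy *Gm10925*, the histone gene *Hist2h2aa2* and *Gm9008*, and alone had *Rpl15-ps3* (668.7 counts), *Eif4a-ps4* (420.5), *Gm8203* (75.8), *Gm15429* (50.8) and *Gm9830* (50.4). WT 4 and KO 4 together differed from the other 6 mice in another 8 genes on 4 chromosomes. They lacked *Gm28661*, *Atp6v0c-ps2*, *Gm9825*, *Gm13443* and *Gm14292*, and alone had *Fam205a3*, *Gm21541* and *Gm17081*, 3 genes of a cluster on chromosome 4. KO 2 differed alone in 6 genes: *Gm6768*, *Gm10163* and *AC158975.1* were off in this mouse, and *Gm13370* (500 counts), *Gm5884* (102.0) and *Skor2* (50) were on in no other. WT 3, KO 2, KO 3 and KO 4 shared 4 genes of a zinc finger cluster on chromosome 2. WT 2 and KO 3, the mice with the highest *Snap25*, shared the absence of *Morf4l1-ps1*, *Gm11868* and *Gm9762*. The part of *Snap25* or of the neuronal share in this was not tested. Such splits were common among the 17669 genes that passed a filter on low counts. WT 4 was highest in 14.2% of them and lowest in 15.0%, and KO 2 in 16.0% and 14.8%. WT 2 with KO 3 were highest in 13.7% and lowest in 10.1%, and WT 4 with KO 4 in 2.75% and 3.08%. The numbers for WT 4, KO 2, and WT 2 with KO 3 are therefore not read as particular to on/off genes.

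The other splits held 1 or 2 genes each. KO 4 alone lacked *Pcna-ps2* (82.0 to 290.0 counts elsewhere) and *Gm45315* (59.6 to 181.9), KO 1 alone lacked *Gm6361* (248.1 to 552.7), and KO 2 and KO 4 lacked *Gm4737*. WT 1 alone had *Gm49358* (72.3) and *Gm10297* (71.2), and WT 3 alone had *Gm44911* (53.7). WT 1 and WT 3 lacked *Gm10184* and alone had *Snurf* (201.7 and 185.9 counts), which is made from the imprinted *Snrpn* locus. WT 2 and WT 3 lacked *Gm8210* and alone had *Gm6851* (55.3 and 51.0). WT 1 and WT 2 lacked *Gm7887* (375.3 to 640.6 elsewhere). WT 4 and KO 1 alone had *Ptges3-ps* (69.4 and 67.5). Genes on in 3 to 5 mice included *Gm5537*, a copy of the glycolytic gene *Pgk1*, at 239.7, 677.1, 877.3 and 693.8 counts in WT 1, WT 2, WT 3 and KO 1. They also included *Gm7993*, a copy of the polyamine synthesis gene *Odc1* (71.9 to 192.9 counts in WT 1, WT 4, KO 1, KO 2 and KO 4), and *Gm5815*, a copy of *Glcci1* (61.1 to 202.6 in WT 1, WT 3, WT 4 and KO 1).

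Counted over all 57 genes, mice differed from each other in 13 to 34. WT 2 and KO 3, both male, were the most alike pair with 13 differences, and WT 3 and WT 4, both female WT mice, were the least alike with 34. The 6 pairs of WT mice differed in 16 to 34 genes (median 24.0), the 6 pairs of KO mice in 16 to 27 (median 21.5) and the 16 pairs of a WT and a KO mouse in 13 to 33 (median 23.5). The ranges overlapped, and mice of 1 genotype were about as different from each other as from mice of the other genotype. The 3 pairs of males differed in 13 to 18 genes (median 17), the 10 pairs of females in 16 to 34 (median 24.0) and the 15 pairs of different sex in 16 to 31 (median 22.0). Each mouse enters several pairs, so these counts are not independent. The number of genes on in a mouse lay between 25, in WT 2 and KO 4, and 35, in WT 3. The deepest mouse, KO 3, had 30 on and the shallowest, WT 4, had 31.

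**Figure D3:**
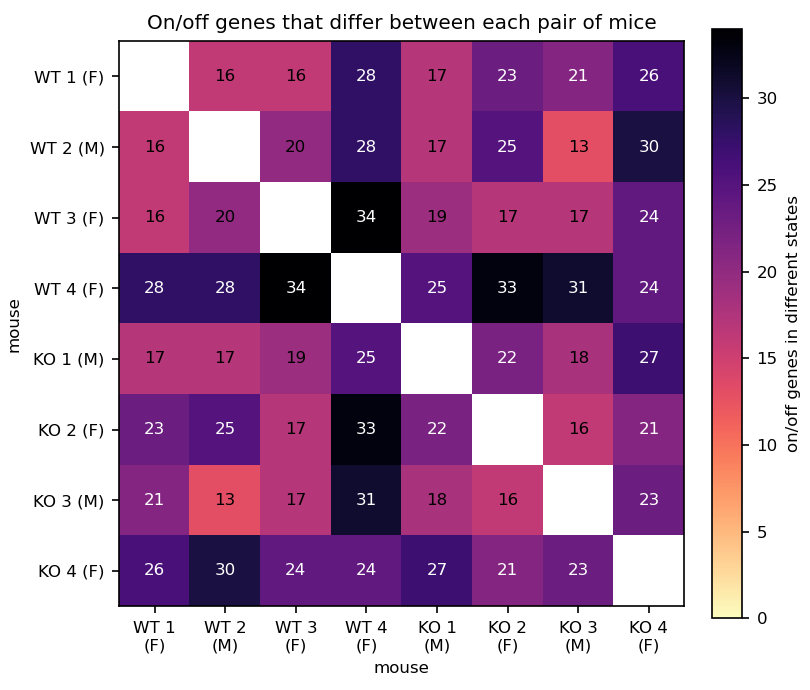
Number of the 57 on/off genes that were on in 1 mouse and off in the other, for each pair of mice (both axes list the mice, with F female and M male). The counts run from 13, between WT 2 and KO 3, to 34, between WT 3 and WT 4.

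For the 54 genes with a copy, the reads of gene and copy were set side by side as TMM-scaled CPM, the reads of a gene relative to all reads of the mouse. CPM is not corrected for length, so that the values of 2 copies can be summed. A pair was said to trade off when the copy was higher in every off mouse than in every on mouse and the sum varied less over mice than the copy did. By this definition 14 of the 54 genes (25.9%) traded off with their closest copy, in 12 different pairs. The copy moved the opposite way, with every on mouse above every off mouse, for 7 genes. As background, the share of all 17669 tested genes that put the mice in the same order depends on the split. It was 16.0% where KO 2 alone has to be highest, 15.0% where WT 4 alone has to be lowest, and 0.6% to 13.7% for splits with at least 2 mice on each side. Added over the 54 pairs, these shares come to 3.61 genes in the trading order and 3.51 in the matching order. The gene took under 10% of the summed reads in every mouse in 27 of the 54 pairs, and 3 of the 14 trading genes were among these.

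*Ahcy*, the enzyme that breaks down S-adenosylhomocysteine, the by-product of methylation reactions, traded off with *Gm4737*. *Gm4737* on chromosome 16, annotated as protein-coding, had 3267.6, 2433.4, 1764.3 and 2629.1 counts in WT 1 to WT 4 and 3277.9, 0, 1938.0 and 0 in KO 1 to KO 4. In CPM these were 58.8, 39.8, 37.6 and 53.6 against 64.0, 0, 25.7 and 0. *Ahcy* had 2.96, 1.73, 28.5 and 1.65 CPM in WT and 2.87, 57.9, 18.8 and 57.6 in KO. *Ahcy* was thus highest in the mice that lacked *Gm4737*, intermediate in WT 3 and KO 3, and at 1.65 to 2.96 CPM in the other 4. The sum was 61.7, 41.6, 66.1 and 55.3 CPM against 66.9, 57.9, 44.5 and 57.6. Its highest mouse was 1.61 times its lowest, where *Ahcy* alone spanned 35.0 times. KO 2 and KO 4 were both above the other 6 mice in 4.59% of the tested genes.

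*Kpna2* encodes an importin that carries proteins into the nucleus, and its copy *Gm10184* lies on chromosome 17. *Gm10184* had 0, 33.2, 0 and 25.5 CPM in WT and 30.2, 26.2, 15.0 and 13.9 in KO. *Kpna2* had 30.7, 1.92, 32.2 and 1.93 CPM against 1.39, 0.891, 14.9 and 13.8. WT 1 and WT 3 had all reads in *Kpna2*, KO 3 and KO 4 divided them about evenly, and in the other 4 mice nearly all were in *Gm10184*. The sum lay between 27.1 and 35.1 CPM, a span of 1.3 times against 36.2 for *Kpna2*.

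Enolase 1, an enzyme of glycolysis, was represented by *Eno1*, the protein-coding copy *Eno1b* and the on/off pseudogene *Gm4735* on chromosome 2. *Gm4735* had 0.0507, 4.76, 6.27 and 1.13 CPM in WT and 15.9, 4.16, 6.21 and 0 in KO, and was the smallest part. *Eno1b* had 0.369, 305, 292 and 277 CPM against 535, 268, 277 and 0.688, and *Eno1* had 819, 490, 474 and 492 against 187, 456, 464 and 755. WT 1 and KO 4, the mice without *Gm4735*, had hardly any *Eno1b* and the most *Eno1*, and KO 1 had the most of both copies and the least *Eno1*. The closest copy, *Eno1b*, moved with *Gm4735*, while *Eno1* traded off with it. The 3 genes summed to 820, 801, 772 and 770 CPM in WT and 738, 728, 748 and 756 in KO, a span of 1.13 times. The sum was 791 ± 23.9 (SD, n = 4) in WT and 742 ± 12 in KO and did not overlap between the genotypes (two-sided exact permutation p = 0.0286, the smallest that 70 splits of 4 against 4 allow). This p is 1 of 14 computed for summed families. With Benjamini-Hochberg adjustment over the 14 the exact permutation p was 0.4, which does not pass. The families were chosen around on/off genes after their counts were seen, so nothing is read from these p-values.

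*Gm8210* on chromosome 1 is 1 of many copies of *Rpl29*, a protein of the large ribosomal subunit. It had 53.6, 0, 0 and 35.6 CPM in WT and 113, 43.3, 43.5 and 92.1 in KO. *Rpl29* had 140, 172, 217 and 147 CPM against 106, 126, 130 and 100. WT 2 and WT 3, which lacked *Gm8210*, had the most *Rpl29*, and KO 1 and KO 4, which had the most *Gm8210*, had the least. The sum was 191 ± 19.4 CPM in WT and 188 ± 22.6 in KO, and its values of 169 to 218 overlapped fully. The closest copy by sequence was the pseudogene *Gm6344*, which was at 0 in 7 mice and at 0.202 CPM in WT 3.

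*Gm6768* on chromosome 12 copies *Ncoa4*, the receptor that delivers ferritin to autophagy. It had 18.6, 17.1, 31 and 18.2 CPM in WT and 35.2, 0, 16.7 and 19.7 in KO. *Ncoa4* had 102, 90.6, 86.3 and 98.0 CPM against 82.1, 122, 97.8 and 99.3, with its highest value in KO 2, the mouse without *Gm6768*, and its lowest in KO 1, the mouse with the most. The sum spanned 1.13 times, against 1.48 for *Ncoa4*. KO 2 was above every other mouse in 16.0% of the tested genes, so this order alone is common.

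In some pairs of on/off genes with identical aligned sequence, 1 gene was on where the other was off, in all mice or in part of them. *Gm2436* and *Gm2446* flank the signal recognition particle gene *Srp54b* on chromosome 12. *Gm2446* had 3.17, 4.3, 2.48 and 2.53 CPM in WT and 0, 3.65, 0 and 2.78 in KO, and *Gm2436* was on only in KO 1 and KO 3, at 2.33 and 4.79 CPM. No mouse had reads in both, and no mouse lacked both. *Gm10163* on chromosome 9 and *Gm13370* on chromosome 2, identical copies in the family of the ribosomal protein gene *Rpl21*, did the same. *Gm10163* had 16.2, 9.03, 20 and 1.32 CPM in WT and 22.3, 0, 3.89 and 4.02 in KO, and *Gm13370* had 8.46 CPM in KO 2 alone. Their sum still spanned 16.9 times, from 1.32 CPM in WT 4 to 22.3 in KO 1, and each had 80 copies. *Gm6361* on chromosome 15 and *Gm6565* on chromosome 6, copies of the ubiquitin conjugation gene *Ube2v2*, divided 5.09 to 8.23 CPM. *Gm6361* was off in KO 1 alone, where *Gm6565* had 6.71 CPM, and *Gm6565* was also on in WT 2 at 1.87 CPM, beside 6.36 CPM of *Gm6361*.

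**Figure D4:**
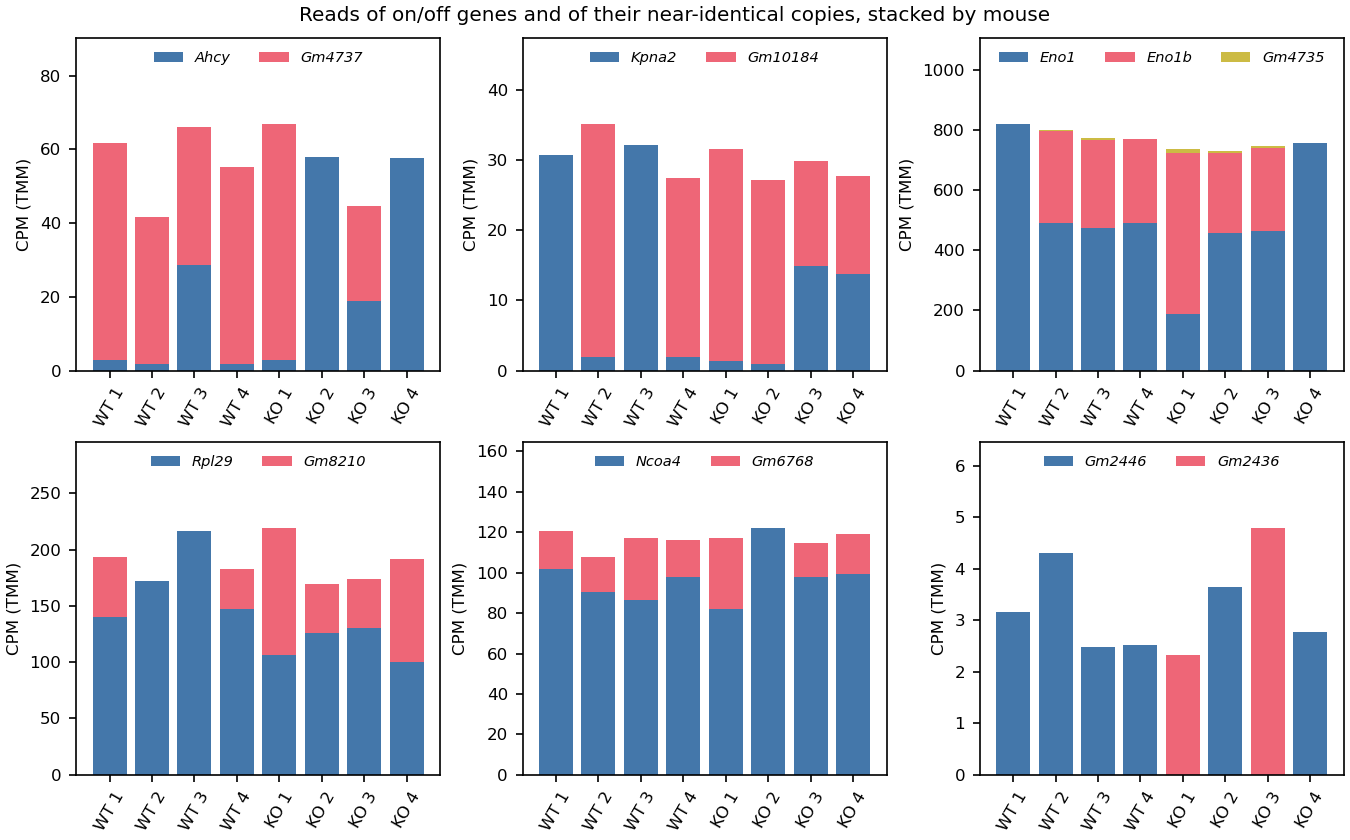
CPM after TMM scaling (y axis, from 0) of on/off genes and their copies in each mouse, stacked, for *Ahcy* with *Gm4737*, *Kpna2* with *Gm10184*, *Eno1* with *Eno1b* and *Gm4735*, *Rpl29* with *Gm8210*, *Ncoa4* with *Gm6768*, and *Gm2446* with *Gm2436*. The height of each stack varied less over mice than its parts: in the *Ahcy* panel the stacks span 1.61 times and *Ahcy* alone 35.0 times.

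*Hist2h2aa2* and *Hist2h2aa1* encode histone H2A. *Hist2h2aa2* had 5.89, 5.68, 6.46 and 0 CPM in WT and 5.68, 4.89, 6.32 and 9.02 in KO. *Hist2h2aa1* was highest in WT 4, at 19.0 CPM against 6.19 to 10 elsewhere, and the sum spanned 1.6 times against 3.08. The other trading genes were small beside their copies. *Gm9825* (0 in WT 4, 0.0171 CPM in KO 4, 10.5 to 23.5 elsewhere) traded off with the splicing gene *Rnps1*, at 84.5 and 87.8 CPM in WT 4 and KO 4 and 71.2 to 83.0 in the others. *Gm11868* (0 in WT 2 and KO 3, 1.76 to 6.09 CPM elsewhere) traded off with the reductase gene *Cyb5r4*, at 45.1 and 39.9 CPM against 23.1 to 29.2. That order of mice, WT 2 and KO 3 highest, was shared by 13.7% of tested genes. *Eif4a-ps4* (8.57 CPM), *Rpl15-ps3* (13.6) and *Gm9830* (1.03) were on in WT 4 alone, where the translation initiation helicase *Eif4a1*, the ribosomal gene *Rpl15* and the cap methylation gene *Ramac* were at their lowest, 222, 165 and 49.9 CPM. The reads of each of these 3 pseudogenes were fewer than the gap between WT 4 and the next lowest mouse in the copy, and WT 4 was the lowest mouse in 15.0% of tested genes. *Gm10297*, on in WT 1 alone at 1.28 CPM, copies *Gkap1*, which was lowest there at 7.77 CPM and lay between 8.75 and 13.9 elsewhere. With any copy of at least 1 CPM in place of the closest, 20 on/off genes traded off. This count tries every such copy of a gene, and *Gm45315* had 109 copies in all. No background share was computed for it, so nothing is read from the rise. The 6 added were *Gm4735*, *Gm8210* and *Gm6361*, described with their families, *Gm8203* with the histone gene *H2afz*, *Snurf* with *Snrpn*, and *Gm45315* with *Hmgb1*.

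Copies of mitochondrial genes had far fewer reads than the genes they match, and none met the trade-off definition. The chromosome 1 genes *Gm28439*, *Gm28437*, *Gm10925* and *Gm28661* are unprocessed pseudogenes of the mitochondrial genome and lie within 6 consecutive annotated genes. *Gm10925* matches *mt-Atp6*, a subunit of ATP synthase, and had 4499.3, 3708.2, 40501.1 and 0 counts in WT and 12696.0, 34762.5, 18112.4 and 1410.9 in KO. *Gm28661* matches the cytochrome oxidase gene *mt-Co2* and had 430.9, 188.2, 3384.0 and 0 counts against 374.6, 7541.0, 935.1 and 0. *Gm28437* matches *mt-Co3* and had 283.0, 0, 756.5 and 0 counts against 0, 1435.2, 108.7 and 0. These 3 were highest in WT 3 and KO 2 and absent from WT 4. *Gm28439* matches *mt-Nd4*, a subunit of complex I, and went another way, with 7520.3, 13780.2, 0 and 7721.1 counts against 0, 2839.9, 6617.1 and 4935.0. The 4 genes took at most 5.21%, 1.87%, 0.193% and 4.94% of the reads shared with their mitochondrial copies, in the order *Gm10925*, *Gm28661*, *Gm28437* and *Gm28439*. The mitochondrial genes themselves spanned 1.78 to 1.9 times over mice. *Gm28438*, in the same run of genes, was read in every mouse at 13810 to 42425 counts and *Gm10222* in none.

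Among the genes with large counts, *Atp6v0c-ps2* and *Morf4l1-ps1* did not meet the trade-off definition. *Atp6v0c-ps2*, a copy of the proton channel subunit *Atp6v0c*, had 38.3, 89.2, 71.2 and 0 CPM in WT and 86.7, 39.5, 35.1 and 0 in KO. *Atp6v0c* had 596 and 572 CPM in WT 4 and KO 4, within the 486 to 617 of the other mice. *Morf4l1-ps1*, a copy of the chromatin gene *Morf4l1*, had 61.0, 0, 32.2 and 59.0 CPM against 50.9, 28.7, 0 and 48.5, and *Morf4l1* lay between 404 and 524 CPM with WT 2 and KO 3 at 483 and 522. *Rpl34-ps1* had 0, 0, 23.7 and 0 CPM in WT and 26.5, 18.1, 13.0 and 19.1 in KO, on in every KO mouse and in 1 WT mouse. *Rpl34*, the ribosomal protein gene it copies, had 104, 77.0, 96.9 and 88.5 CPM against 99.3, 80.4, 64.7 and 96.7. In the sum, WT 3 (121 CPM), KO 1 (126) and KO 4 (116) were highest and KO 3 (77.8) and WT 2 (77.0) lowest.

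A further 10 on/off genes held a small share of the reads of the gene and its closest copy summed, and none traded off with that copy. *Gm9008*, protein-coding and on in all mice but WT 4 at 119.5 to 504.1 counts, took at most 22.6% of the sum with the ubiquitin ligase gene *Rnf26*. *Pcna-ps2*, absent from KO 4, took at most 13.1% beside *Pcna*, the sliding clamp of DNA replication, and *Gm7887*, absent from WT 1 and WT 2, at most 9.98% beside *Pcnp*. *Gm14292* had 85.4 to 161.0 counts in 6 mice and at most 5.19% beside *Wtap*, a subunit of the RNA methylation complex. *Gm6851* took at most 7.97% beside the prolyl isomerase gene *Pin4*, *Gm44911* 5.38% beside the cilia gene *Cplane1*, and *Gm5884* 5.11% beside the endosome gene *Tom1*. *Gm15429* took at most 2.22% beside the gamma-secretase gene *Aph1a*, *Gm9762* 1.72% beside the ubiquitin conjugation gene *Ube2d2a*, and *Ptges3-ps* 1.3% beside the co-chaperone gene *Ptges3*. In these pairs the highest mouse of the copy was 1.15 to 1.62 times its lowest.

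The copy moved with the on/off gene in 7 cases. *Gm13443* copies *Glo1*, the glyoxalase that detoxifies methylglyoxal, which is known to be duplicated in some inbred strains. *Gm13443* had 12.4, 8.76, 11.7 and 0 CPM in WT and 23.8, 11.9, 7.93 and 0 in KO. *Glo1* had 220, 212, 235 and 98.5 CPM against 285, 238, 214 and 116, so WT 4 and KO 4 were lowest in both genes. In 3.08% of tested genes these 2 mice were below all others. *Eno1b*, which moved with *Gm4735*, and *Katnal1*, a microtubule severing gene that overlaps *Gm42791*, were others. The remaining 4, *Gm14295*, *Gm14416*, *Zfp973* and *Gm17167*, lie in the clusters on chromosomes 2 and 4.

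In the zinc finger cluster on chromosome 2, many genes shared 1 order of the mice. From *Zfp965* to *Gm14421* the annotation lists 39 genes, 36 of them in the table and 17 with at least 50 counts in a mouse. The on/off genes among these were *Zfp965*, *Gm14305*, *Gm14419* and *Gm14421*, all on in WT 3, KO 2, KO 3 and KO 4. *Gm14305* had 0, 0, 558.9 and 0 counts in WT and 0, 1279.0, 926.2 and 1339.1 in KO. *Zfp965* had 148.1 counts in WT 3 and 385.8, 185.6 and 427.3 in KO 2, KO 3 and KO 4, and 0 in the other 4 mice. In CPM, 10 more of the 17 genes were higher in these 4 mice than in each of the other 4, and none was lower in all 4. Of the 10, *Gm2004*, *Gm14308*, *Zfp973*, *Gm14295* and *Gm14296* reached 50 counts only in these mice, so the limit favours their order. *Gm14288*, *Gm6710*, *Gm2026*, *2210418O10Rik* and *Zfp967* had at least 50 counts in every mouse. The same order was found in 0.928% of the tested genes, which passed another filter. *Gm14308* had 1.37, 16.3, 327 and 7.57 counts in WT and 4.07, 1202, 614 and 1257 in KO. *Gm14296* had 10.2, 6.08, 391 and 0 counts against 2.0, 1047, 814 and 1129. *Gm2026* was read in every mouse, at 3.14 to 4.17 CPM in WT 1, WT 2, WT 4 and KO 1 and at 10.9 to 23.2 in the others. *Gm14434*, the closest copy of *Gm14305*, was not in this order, with 18.7, 17.6, 15.5 and 12.3 CPM against 16.7, 13.3, 17 and 11.2. The genes of the cluster share sequence, so they are not independent observations.

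On chromosome 4, *Gm21541*, *Gm17081* and *Fam205a3* were on in WT 4 and KO 4 alone. *Fam205a3* had 113.3 and 212.2 counts in these mice, *Gm21541* 84.2 and 158.8, and *Gm17081* 108.3 and 92.3. The annotation lists 24 genes from the first to the last of them, and 11 reached 50 counts in a mouse. Besides the 3 on/off genes, 5 were highest in WT 4 and KO 4, and 2 were lowest there, *Gm20878* and *Gm13306*. Those 5 reached 50 counts in no other mouse, so the limit that listed them favours their order. Among all tested genes, which passed another filter, 2.75% and 3.08% had these orders. The 5 genes are therefore not read against these shares. *Gm21093* had 448 and 873 counts in WT 4 and KO 4 and 0 to 11.7 in the other mice. *Gm17167*, the closest copy of *Gm17081*, had 384 and 339 counts in WT 4 and KO 4 and 8.44 to 34.0 in the others. *Gm20878* went the other way, at 3.75 and 5.26 CPM in these mice against 6.03 to 15.8.

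**Figure D5:**
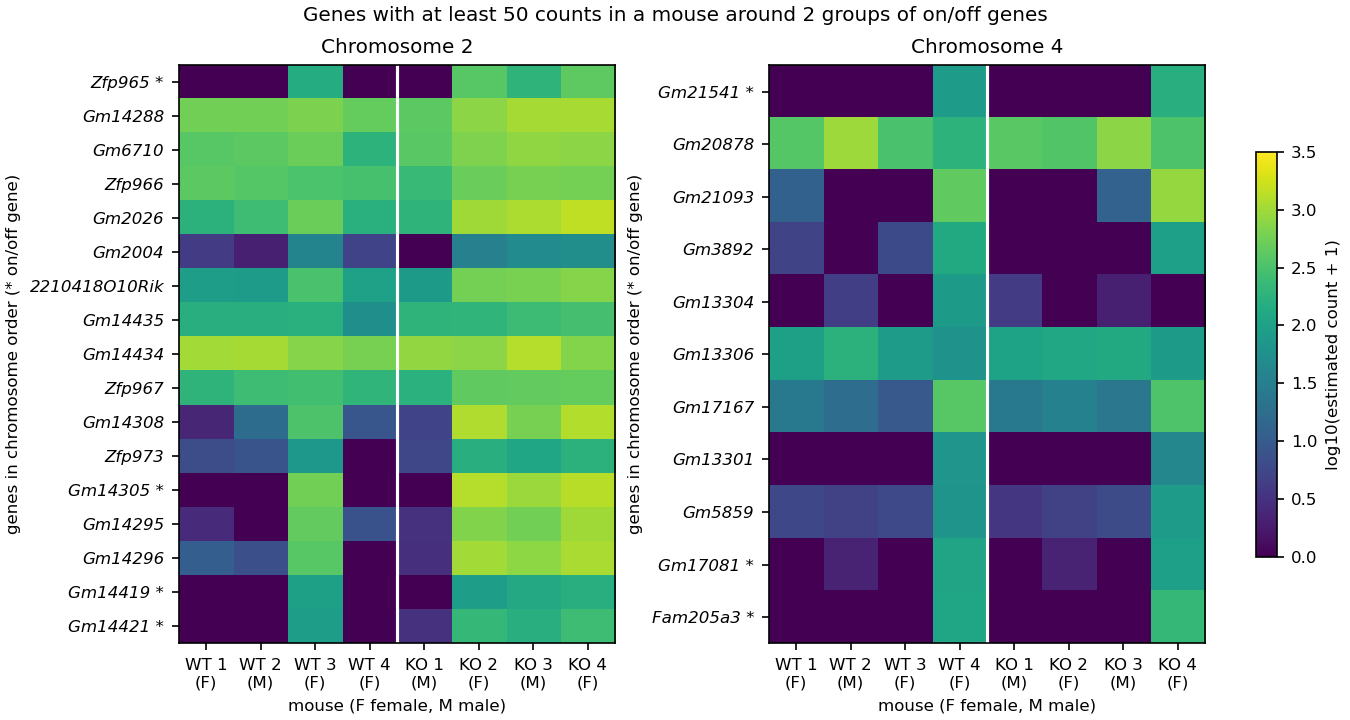
Estimated counts, as log10(count + 1) on the colour scale, of the genes that reached 50 counts in a mouse within the 2 clusters, in chromosome order, in the 8 mice (WT left and KO right of the white line). Of the 17 genes on chromosome 2, 14 were higher in WT 3, KO 2, KO 3 and KO 4 than in the other mice by CPM. Of the 11 on chromosome 4, 8 were highest in WT 4 and KO 4. All of these 8, and some of the 14, reached 50 counts only in those mice, which favours that order.

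The 3 genes without a copy were *Bfsp2*, *Skor2* and *AC158975.1*. *Bfsp2*, on chromosome 9, encodes a protein of the beaded filaments of the lens. It had 140, 317, 140 and 124 counts in WT and 2, 109, 198 and 2 in KO, and was off in KO 1 and KO 4. Its counts were whole numbers, no copy was found and 89.3% of its words were unique. *Skor2*, a transcriptional corepressor, had 50 counts in KO 2 and 0 in the other 7 mice. The lincRNA *AC158975.1* had 72.0 to 177.6 counts in 7 mice and 0 in KO 2. *Skor2* and *AC158975.1* lie on chromosome 18 with 114 annotated genes from the first to the last, both included, and KO 2 is apart in both.

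Most of the 8 genes whose closest copy overlaps them in the annotation were low. *Gm20431* overlaps the ubiquitin gene *Ube2v1* on chromosome 2 and had 63.5 to 165.3 counts in WT 1, WT 2, WT 4, KO 1 and KO 3. *Gm42791* overlaps *Katnal1* and had 59.1 to 93.0 counts in WT 2, WT 4 and KO 3. *Rsc1a1*, which overlaps the protease gene *Ddi2* and has no unique word, had 114.3, 117.7 and 94.7 counts in WT 1, WT 3 and KO 4. *Gm49358* overlaps *Nt5dc3*, *Gm8203* overlaps *Tmcc1*, the lincRNA *Gm49749* overlaps *Pcnx* (59.2 to 107.2 counts in WT 3, WT 4, KO 1 and KO 2), *Gm45315* overlaps *Gm18194*, and *Snurf* overlaps *Gm38393*. Whether strand was used in the counting is not given in the sources used here, so reads of overlapping genes cannot be told apart.

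The comparison of KO with WT asks which genes differ with the loss of *Lrig1*. In edgeR's quasi-likelihood test over 17669 genes, with Benjamini-Hochberg adjustment and a threshold of 0.1 on the adjusted p, 1 gene was called (0.00566%). None of the on/off genes was called, which is near that background, and the rule had used the same counts. *Lrig1*, the gene knocked out, was not called either (log2 difference -3.8, edgeR adjusted p = 0.286). A gene left uncalled here can therefore not be read as unchanged. The filter on low counts left out 21 of the 57, so that 36 were tested. Of these, 18 had a higher fitted value in KO and 18 a lower one, 0 had an unadjusted p under 0.05 (1.88% of all genes tested) and the smallest was 0.154. Their fold changes were large and poorly determined, with a median size of 0.58 on the log2 scale against 0.09 for all genes tested. DESeq2 called 12 of 19387 genes (0.0619%), *Lrig1* among them (DESeq2 adjusted p = 4.46e-08), and 0 of 40 on/off genes. Of these 40, 3 had an unadjusted p under 0.05 (2.57% of all genes). The study reported more genes at this threshold than either tool called here. Without WT 3, the only WT mouse in which *Rpl34-ps1* was on, edgeR called that gene and 0.0111% of all genes. The remaining WT mice are then all at 0 for it, and nothing is read from this call. The p-values set the difference between KO and WT against the spread between mice. For genes with copies that spread includes how shared reads were divided.

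Within the families, the differences fitted for single genes are given beside those for their sums. *Gm4737* had a KO minus WT log2 difference of -1.08 (SE 1.46) and *Ahcy* one of 1.98 (SE 1.14), both with an edgeR adjusted p of 1. Summed, they gave 0.01 (SE 0.16), and the mean was 56.2 ± 10.7 CPM in WT and 56.7 ± 9.2 in KO (SD, n = 4 each). *Rpl29* was 169 ± 34.8 CPM in WT and 115 ± 14.5 in KO, a log2 difference of -0.55 (SE 0.15) with an edgeR adjusted p of 1. All 4 KO mice were below all 4 WT mice. The share of all tested genes in this order was not computed, so nothing is read from the order. The sum of *Rpl29* and *Gm8210* was 191 ± 19.4 against 188 ± 22.6 CPM. *Kpna2* and *Gm10184* had log2 differences of -1.1 (SE 1.16) and 0.54 (SE 1.4), and together -0.11 (SE 0.09). With each on/off gene summed with its closest copy, where it had one, 51 entries passed the filter, among them *Bfsp2* and *AC158975.1* without a copy. None of the 51 was called by edgeR, and 1 had an unadjusted p under 0.05, *Gm7887* with *Pcnp*, at a log2 difference of 0.17 (SE 0.06, adjusted p = 1). In the chromosome 2 cluster, *Gm14305* had a log2 difference of 2.22 (SE 1.91) and *Zfp965* one of 2.35 (SE 1.73), with WT 3 on the side of 3 KO mice and KO 1 on the side of 3 WT mice.

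*Gm43079*, the one gene called, missed the on/off rule by its 49.997 counts in WT 4. It had 67.3, 61.0, 52.1 and 50 counts in the WT mice and 0 in all 4 KO mice (edgeR adjusted p = 0.0298). The call was lost with the replicate number as a block (edgeR adjusted p = 1) and without WT 1, WT 3 or WT 4 (0.401, 0.108 and 0.406), where the fitted log2 difference was -8.96, -8.92, -9.0 and -9.03, against -8.97 with all mice and no block. As KO was at 0, the fitted size depends on the prior count. It overlaps *Acad9*, an acyl-CoA dehydrogenase gene on chromosome 3, at 99.8% identity over 95.2% of its transcript. *Acad9* was 39.9 ± 2.27 CPM in WT and 41.8 ± 1.62 in KO. *Lrig1* itself lies on chromosome 6 with 9 of the on/off genes, of which *Gm6565* is nearest with 71 annotated genes between them. None of the 9 was on in exactly one genotype.

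Sex is not balanced between the genotypes, and males and females were also compared, with genotype as a term. EdgeR called 657 of 17669 genes (3.72%) and 0 of the 36 on/off genes tested. At an unadjusted p under 0.05, 1 on/off gene and 15.9% of all genes were counted. DESeq2 called 1542 of 19993 genes (7.71%) and 10 of 45 on/off genes, so the count for on/off genes depended on the tool. WT 2 is the only WT male, and without it edgeR called 10 genes (0.056%), among them 2 on/off genes.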

How the data were processed

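Bulk RNA-seq of V-SVZ tissue from 4 *Lrig1* KO and 4 WT mice was analysed from the deposited tables. The authors made FASTQ files with bcl2fastq 2.20 and ran Salmon, whose version is not given in the sources used here, against Gencode M29. The deposited tables hold estimated counts per gene, and Salmon's own estimated counts and TPM by transcript for each mouse, with no further normalization. How transcripts were summed to genes is not given in the sources used here. Groups and sexes came from the labels.

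The on/off genes were found in the unrounded gene counts. The genes and lists were chosen with earlier results of these data known. Gene classes, chromosomes and transcript sequences came from Gencode M21 (GRCm38), which is not the authors' build, so no coordinates are given. It matched 97.4% of the transcripts and 99.3% of the reads, and 53 of the 57 on/off genes had a transcript of the length in the deposited files. Copies were found with blastn of BLAST+ 2.17.0.

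The counts were rounded and fitted with edgeR 4.0.16 in R 4.3.3 (TMM, filterByExpr, quasi-likelihood test, Benjamini-Hochberg adjustment over 17669 genes, adjusted p under 0.1). KO was compared with WT without covariates and males with females with genotype as a term. DESeq2 1.42.0, other filters and limits, sex or replicate number as a term, and each mouse left out in turn were alternatives. Sums with the closest copy, sums of families with their permutation tests, rounding before the rule and the use of any copy were added after seeing the data. Counts were simulated for 17669 genes with 200 changed by 2 on the log2 scale between KO and WT. EdgeR found 192 and made 16 other calls, and 0 calls on counts with no change. The simulated counts had the spread fitted to genes of similar mean, with no on/off mice and no divided reads. They therefore do not show how many real changes the test finds in these mice. In the real counts *Lrig1* itself was not called (edgeR adjusted p = 0.286). Python 3.11.15 was used elsewhere.

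The named genes were, by rule, the on/off genes with the 10 highest counts, up to 5 for each of the 5 commonest patterns, up to 20 protein-coding ones, up to 10 trading pairs, 3 genes on each side of the limits, and genes known from earlier results. The others were chosen after their values were seen.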

Additional observations from a re-analysis of the deposited data

Results flagged for a closer look

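Within each genotype, values of 4 mice were checked for a mouse far from the other 3, as the gap to the nearest mouse over the whole range of the 4. Of the 88 groups of 4 checked for copies and summed families, chance alone marks about 1 in 20. In the WT mice, *Ahcy* had a gap of 0.951, with WT 3 at 28.5 CPM against 1.65 to 2.96. *Eno1* had a gap of 0.946, with WT 1 at 819 CPM against 474 to 492, and *Eno1b* one of 0.906, with the same mouse at 0.369 CPM against 277 to 305. The lincRNA *2900097C17Rik* had a gap of 0.921, with WT 2 at 1600 CPM against 1389 to 1406.

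*Fam205a2*, a chromosome 4 gene close to *Fam205a3*, had gaps of 0.994 in the WT mice (WT 4 at 4.32 CPM against 0 to 0.0264) and 0.98 in the KO mice (KO 4 at 2.49 CPM against 0 to 0.051). The summed CPM of *Fam205a1*, *Fam205a2*, *Fam205a3* and *Fam205a4* did the same, with gaps of 0.975 (WT 4 at 6.73 against 0.162 to 0.327) and 0.992 (KO 4 at 6.03 against 0.186 to 0.234). In the KO mice, *Rpl21* had a gap of 0.867, with KO 3 at 224 CPM against 302 to 314. The sum of *Gm2436*, *Gm2446* and *Ppp2r3c* had a gap of 0.857, with KO 3 at 28.9 CPM against 23.3 to 24.1. Of the 57 on/off genes, 30 had such a mouse in at least 1 genotype, which the rule that chose them makes likely.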

How the results depend on the processing

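The number of on/off genes was 30 with limits of 100 and 3 counts and 89 with limits of 50 and 10. It stayed between 52 and 78 under other limits, scaling, rounding and transcript sums, and between 53 and 63 with each mouse left out in turn. In KO against WT, the genes called were 12 with DESeq2, 2 with no filter on low counts, 0 with at least 10 counts in every mouse, 2 with sex as a covariate, and 0 to 3 with each mouse left out. The on/off genes called were 0 to 1 with each mouse left out. The 1 was *Rpl34-ps1* without WT 3, the only WT mouse that had it, and nothing is read from this, since the other WT mice are all at 0. No on/off gene has 10 counts in every mouse, so that filter gave no value for them. *Gm43079* lost its call without WT 1, WT 3 or WT 4 (edgeR adjusted p of 0.401, 0.108 and 0.406) while its fitted log2 difference was -8.92, -9.0 and -9.03, against -8.97. The cause was not tested. *Lrig1*, at an edgeR adjusted p of 0.286, passed with DESeq2 (4.46e-08), no filter (0.0979), sex (0.000176) and without WT 2 (0.0623).

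Between males and females, the genes called were 1542 with DESeq2, 1360 with no filter, 7 with no genotype term, and 10 (without WT 2) to 1462 (without KO 1) with each mouse left out, and 59 without KO 3. The on/off genes called were 10 with DESeq2, 10 with no filter, and 0 to 4 with each mouse left out. The cause was not tested. The pairs that trade off numbered 10 to 18 with each mouse left out, 14 to 16 under other identities, strands and scalings, and 20 with any copy.

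WT and KO mice share replicate numbers, but the numbers do not pair the mice: deviations of same-numbered mice correlated at 0.077, -0.225, -0.225 and 0.267. With the replicate block, 0 genes were called in KO against WT, and 10 genes and 2 on/off genes between males and females.

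The counts do not show from which copy a shared read came.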

Other observations

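A lower limit of 10 counts in place of 3 adds 32 genes, transcription factor genes among them. *Sim1*, a transcription factor of hypothalamic neurons, had 4, 0, 3 and 81 counts in WT 1 to WT 4 and 2, 193, 3 and 87 in KO 1 to KO 4. *Uncx* had 9, 0, 1 and 56 counts against 6, 53, 4 and 56, and *Fezf1* had 1, 1, 0 and 53 against 8, 84, 9 and 54. WT 4, KO 2 and KO 4 were the high mice in all 3 genes. *Hmx2*, *Fgf17* and *Nms* were highest in KO 2, at 76, 59 and 56 counts. *Myl1*, a myosin light chain, had 92 counts in WT 2 and 64 in KO 3 and at most 4 elsewhere, and *Gm10635* had 489 and 169 in these mice and at most 8 elsewhere.

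*AC165951.1* had 820 to 1332 counts in 6 mice and 8.06 and 7.78 in WT 4 and KO 4, the mice set apart by 8 on/off genes. *Rps2-ps6* had 364 to 947 counts in the same 6 mice and 0 and 3.12 in WT 4 and KO 4. *Gm7292* had 4214, 4407, 1315 and 4064 counts in WT and 3772, 3.89, 2553 and 2.61 in KO, low in KO 2 and KO 4 as *Gm4737* was. Its copy, the lincRNA *2900097C17Rik*, had 1364 to 1618 CPM, and together they spanned 1.18 times.

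Of a list of genes known to vary between inbred mouse strains, none was an on/off gene. The list does not hold all such genes, and whether the on/off genes themselves vary between strains was not tested. *Glo1*, known to be duplicated in some strains, had 98.5 CPM in WT 4 and 116 in KO 4, against 212 to 285 in the other mice. *Wdfy1* had 2022.1, 3471.2, 369.0 and 1850.7 counts in WT and 460.0, 2425.8, 5106.0 and 2361.3 in KO, lowest in WT 3 and KO 1. *Casp4* had 0 to 3 counts in every mouse. By gene symbol alone, 2 of 101 ribosomal protein genes and copies that reached 50 counts were on/off genes, 1 of 365 zinc finger genes and 1 of 30 histone genes. Symbols miss family members named otherwise, such as *Gm8210*, *Gm10163* and *Gm13370* among ribosomal protein copies and *Gm14305*, *Gm14419* and *Gm14421* in the zinc finger cluster. By symbol, none was an MHC, interferon-induced, clustered protocadherin or *Pisd* gene.

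On the sex chromosomes, 4 genes met the count rule. *Xist* and *Eif2s3y* followed the labelled sex in all 8 mice. The X-linked *Sms-ps* had 0 counts in WT 4 and 83.9 to 386.6 elsewhere, and *Rpl21-ps15* had 53.3 counts in WT 1 and 0 elsewhere.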
